A study of Mus musculus with 12 samples.

Results

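Fc receptors read the antibody coat on microbes and immune complexes, and the myeloid C-type lectin receptors read sugars and lipids of fungi and mycobacteria. A set of 9 such genes, named by function and not by their values, were followed in mouse bone marrow neutrophils labelled Runx1KO (Runx1 knockout) or Control, with and without lipopolysaccharide (LPS). They were Fcgr1, Fcgr2b, Fcgr3, Fcgr4, Fcer1g, Clec4d, Clec4e, Clec4n and Clec7a, 9 of the 37310 genes in the deposited count table. Each was found by matching the Ensembl identifier in the table to its symbol. All but Fcgr1 passed the filter on low counts (8 of 9), which left 12917 genes for testing.

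Mouse Fc gamma receptors bind IgG. Fcgr1, Fcgr3 and Fcgr4 encode activating receptors, and all of them need the common gamma chain encoded by Fcer1g, whose immunoreceptor tyrosine-based activation motif (ITAM) recruits the kinase Syk. Fcgr2b encodes the inhibitory receptor, which carries an inhibitory motif (ITIM) in its own tail. Clec4e (Mincle), Clec4d (MCL) and Clec4n (Dectin-2) are lectins that also signal through the Fcer1g chain, whereas Clec7a (Dectin-1), the beta-glucan receptor, carries an activating motif in its own tail. On neutrophils these receptors are known for triggering phagocytosis, the oxidative burst and cytokine release.

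The 12 libraries formed 4 groups of 3, all from C57BL/6 mice. They were Runx1KO neutrophils with LPS, Control neutrophils with LPS, Runx1KO neutrophils with vehicle and Control neutrophils with vehicle. Bone marrow cells were sorted as CD11b+, Ly6G+, Siglec F- and F4/80- and kept for 2 h with vehicle or with LPS at 100 ng per mL before RNA was taken. The series text adds that Control material was LKS- cells pooled from a Runx1f/f and a Runx1f/- mouse, the Runx1f/- animal having a germline mutation of a single Runx1 allele. That description and the neutrophil sort in the sample labels are both given here as written. Neither the Cre driver of the knockout nor the animals behind each library are named there.

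Counts per library ran from 19023610 to 26225169. CPM below are counts scaled to 1000000 per library, on library sizes scaled by TMM (the trimmed mean of M-values), whose factors ran from 0.699, in Runx1KO LPS library 3, to 1.20, in Runx1KO vehicle library 3. All 11 mature neutrophil markers were detected in every group. With vehicle their sum ran from 121292 to 157733 CPM in Runx1KO and from 165230 to 178038 CPM in Control. With LPS it ran from 168166 to 170677 CPM in Runx1KO and from 164634 to 193262 CPM in Control. For Runx1KO against Control, 2 of the 11 log2 fold changes were above 0 with vehicle and 3 with LPS. The sort marker Ly6g averaged 137 CPM in Runx1KO and 406 CPM in Control with vehicle. Its means with LPS were 221 and 422 CPM. Runx1 itself was not lower in the knockout libraries, at 58.3, 68.6 and 43.7 CPM in Runx1KO with LPS against 32.3, 50.9 and 26.1 CPM in Control with LPS. With vehicle it stood at 60.5, 68.4 and 75.4 CPM in Runx1KO and 36.8, 56.2 and 38.7 CPM in Control. Counts over the whole gene do not check a deletion of single exons, and the labels do not name the deleted part. Same-numbered libraries deviated together for most comparisons, so values are listed in the order of libraries 1, 2 and 3. The exception was number 3 of LPS against vehicle in Runx1KO. There the deviations correlated by 0.0058 with the same number and by up to 0.218 with another number.

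The genes sit in a few clusters. On chromosome 1, Fcgr2b, Fcgr4, Fcgr3 and Fcer1g lie in that order, with 0 annotated genes between Fcgr4 and Fcgr3. Clec4n, Clec4d and Clec4e are direct neighbours on chromosome 6, Clec7a lies 246 genes further along it, and Fcgr1 is on chromosome 3. Fcgr3 and Fcgr2b are near copies in part: 9.58% of the 50-base stretches in Fcgr3 transcripts also occur in Fcgr2b. Of the stretches in Fcgr2b transcripts, 2.92% also occur in Fcgr3. Both counts are uncertain, since reads from the shared stretches may have been left out or split. These shares do not bound the error for Fcgr2b, which had far fewer counts than Fcgr3 (928 against 37607 in Runx1KO vehicle library 3). Fcgr2b also overlaps a gene model on the opposite strand, Gm38204, by 155 bp.

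Promoter windows were taken from RefSeq (GRCm38.p6), running from 250 bases before to 50 bases after the transcript start. Windows were found for 8 of the 9 genes. Those of 7 are printed, because their LPS values went one way in at least 5 of the 6 number-matched pairs described further on. Each reads 5′ to 3′ along its gene. On the minus strand lie Clec4e at chr6:123289822-123290121, Clec7a at chr6:129472730-129473029, Fcer1g at chr1:171234300-171234599, Fcgr3 at chr1:171059354-171059653 and Fcgr2b at chr1:170976022-170976321. On the plus strand lie Clec4d at chr6:123261857-123262156 and Fcgr4 at chr1:171018676-171018975. Capitals mark the RUNX core TGTGGT, the PU.1 core GAGGAA and the NF-kB consensus on either strand; no matches overlapped in these windows.
Clec4e: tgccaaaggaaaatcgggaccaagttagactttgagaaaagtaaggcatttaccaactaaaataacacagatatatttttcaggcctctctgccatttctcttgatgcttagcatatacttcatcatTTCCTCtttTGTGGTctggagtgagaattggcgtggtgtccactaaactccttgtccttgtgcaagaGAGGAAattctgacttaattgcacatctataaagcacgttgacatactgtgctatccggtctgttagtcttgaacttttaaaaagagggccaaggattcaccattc
Clec4d: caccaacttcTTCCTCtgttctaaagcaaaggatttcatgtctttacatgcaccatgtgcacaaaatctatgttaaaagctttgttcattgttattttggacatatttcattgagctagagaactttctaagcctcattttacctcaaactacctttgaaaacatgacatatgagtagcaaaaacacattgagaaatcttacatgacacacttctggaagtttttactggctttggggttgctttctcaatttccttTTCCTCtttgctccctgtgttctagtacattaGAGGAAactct
Clec7a: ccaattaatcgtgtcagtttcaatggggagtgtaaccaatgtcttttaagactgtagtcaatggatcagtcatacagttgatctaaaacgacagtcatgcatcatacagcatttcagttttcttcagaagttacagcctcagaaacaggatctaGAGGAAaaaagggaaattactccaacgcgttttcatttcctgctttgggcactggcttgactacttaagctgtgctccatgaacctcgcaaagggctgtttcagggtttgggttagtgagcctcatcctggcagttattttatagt
Fcer1g: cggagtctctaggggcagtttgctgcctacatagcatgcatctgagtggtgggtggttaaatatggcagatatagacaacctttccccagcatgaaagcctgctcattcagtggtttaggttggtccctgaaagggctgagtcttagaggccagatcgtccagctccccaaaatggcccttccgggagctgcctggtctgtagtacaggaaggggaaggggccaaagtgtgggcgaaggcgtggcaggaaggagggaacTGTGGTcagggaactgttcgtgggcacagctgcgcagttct
Fcgr3: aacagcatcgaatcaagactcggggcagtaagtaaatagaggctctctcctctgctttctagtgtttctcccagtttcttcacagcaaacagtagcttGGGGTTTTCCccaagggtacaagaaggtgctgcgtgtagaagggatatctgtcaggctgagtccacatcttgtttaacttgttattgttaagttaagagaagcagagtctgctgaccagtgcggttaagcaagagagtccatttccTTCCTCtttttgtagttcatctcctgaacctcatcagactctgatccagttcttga
Fcgr4: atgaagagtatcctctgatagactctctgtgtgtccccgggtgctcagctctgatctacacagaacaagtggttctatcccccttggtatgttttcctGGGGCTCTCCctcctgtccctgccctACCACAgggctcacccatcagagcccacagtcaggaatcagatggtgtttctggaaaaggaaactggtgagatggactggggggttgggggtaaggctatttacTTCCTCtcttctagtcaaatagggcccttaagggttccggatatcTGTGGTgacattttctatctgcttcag
Fcgr2b: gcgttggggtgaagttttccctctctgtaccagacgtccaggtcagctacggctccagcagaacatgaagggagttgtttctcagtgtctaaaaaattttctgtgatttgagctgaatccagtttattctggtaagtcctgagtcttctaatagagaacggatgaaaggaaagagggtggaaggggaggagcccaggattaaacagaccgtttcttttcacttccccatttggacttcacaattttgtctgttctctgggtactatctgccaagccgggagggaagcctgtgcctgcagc

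The RUNX core was found in the windows of Clec4e, Fcer1g and Fcgr4, 3 of 8 genes, against 16.8% of all 32851 RefSeq windows searched. In Clec4e it follows a PU.1 core after 3 bases. The PU.1 core was found in 6 of 8 genes (Fcgr1, Fcgr3, Fcgr4, Clec4d, Clec4e and Clec7a), against 28.3% of all windows. An NF-kB consensus was found in Fcgr3 and Fcgr4, 2 of 8 genes against 8.46% of windows, and the AP-1 motif TGANTCA in 0 of 8 against 7.81%. The Fcgr2b window held none of the 4 motifs. These matches are letters in a window and do not show binding. Fcgr3 and Clec7a had 2 windows each, the first being printed, and a gene counted if any of its windows matched. The shares over all windows are per window, so the 2 units differ.

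Levels between genes were compared as CPM per kilobase of exon, averaged over the 12 libraries. Fcer1g, the shared signal chain, was highest at 1983 ± 1110 CPM per kb (SD, n = 12), at percentile 99.8 of 12325 genes with a length. The activating receptor Fcgr3 followed at 508 ± 225 CPM per kb and the Mincle gene Clec4e at 475 ± 410 CPM per kb. Fcer1g was above Fcgr3 in 12 of 12 libraries, but Fcgr3 was above Clec4e in only 8 of 12, so that pair did not separate beyond their spread.

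Next came Clec4d at 252 ± 143, Clec7a at 146 ± 61.4 and Fcgr4 at 60.4 ± 17.2 CPM per kb. Clec4e exceeded Clec4d in 9 of 12 libraries, Clec4d exceeded Clec7a in 11, Clec7a exceeded Fcgr4 in 12, and Fcgr4 exceeded Clec4n in 11. Clec4n, the Dectin-2 gene, averaged 34.7 ± 19.1 CPM per kb and the inhibitory Fcgr2b 9.17 ± 4.82 CPM per kb, at percentiles 90.1 and 73.6. Fcgr1 was last, at 0.0831 ± 0.0873 CPM per kb. The lectin gene Clec4e varied most between libraries, with a 39.6-fold range of CPM, and Fcgr4 least of the 8 tested genes, with a 2.33-fold range.

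**Figure D1:**
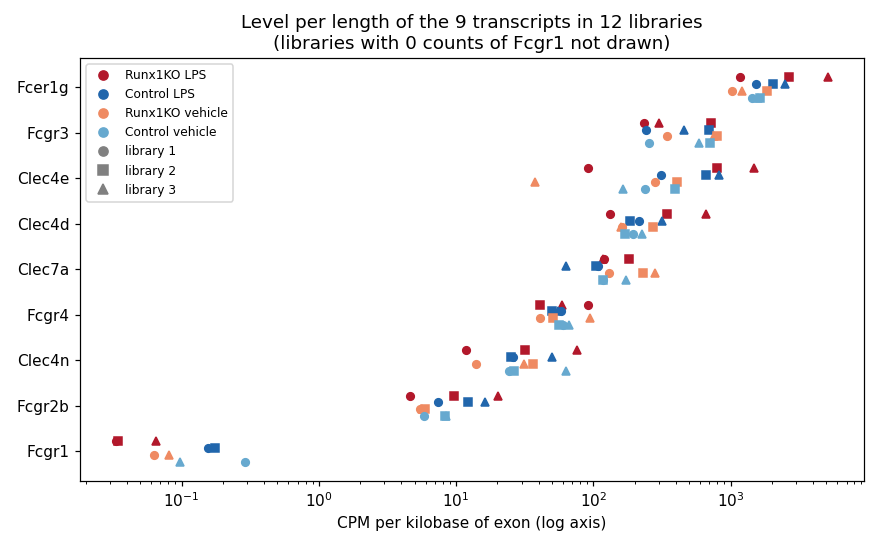
CPM per kilobase of exon (log axis) for the 9 genes in order of their mean over 12 libraries, each point a library coloured by group and shaped by library number. Libraries with 0 counts of Fcgr1 are not drawn. Fcer1g at a mean of 1983 CPM per kb stands above the rest, Fcgr3 and Clec4e overlap, and Fcgr1 lies far below Fcgr2b.

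The high-affinity IgG receptor gene Fcgr1 was near the limit of detection. It had 2, 2 and 3 counts in Runx1KO with LPS, 8, 9 and 0 in Control with LPS, 4, 0 and 6 in Runx1KO with vehicle, and 18, 0 and 6 in Control with vehicle. Groups overlapped in every comparison. A floor of 3 counts per library, the most a count of 0 allows, equals 0.105 to 0.169 CPM, so differences between groups were not detectable at this depth and no fold change is given. Such floors cover counting error only.

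No receptor gene passed the test for an LPS response at an adjusted p of 0.05 (edgeR quasi-likelihood test, Benjamini-Hochberg adjustment over 12917 genes). In Runx1KO neutrophils 0% of all genes tested passed, and in Control neutrophils also 0%. At an unadjusted p under 0.05, 5.23% of all genes passed in Runx1KO and 0.604% in Control; of the 8 tested receptor genes 2 and 0 did so, Fcer1g and Fcgr2b in Runx1KO. DESeq2 also called 0 of the 8. The direction nevertheless ran one way for several genes when each LPS library was set against the vehicle library of its own number and genotype, on a log2(CPM + 0.5) scale. Over these 6 pairs Fcer1g was higher with LPS in 6, whereas Fcgr3 and Clec7a were lower in 6. Over all genes tested, 3.96% were higher in all 6 pairs and 4.61% were lower in all 6. For these 3 receptor genes the counts of pairs were the same with library size alone as the scaling. No share over all genes was computed for 5 of 6 pairs, so such counts below are not read against a share.

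**Figure D2:**
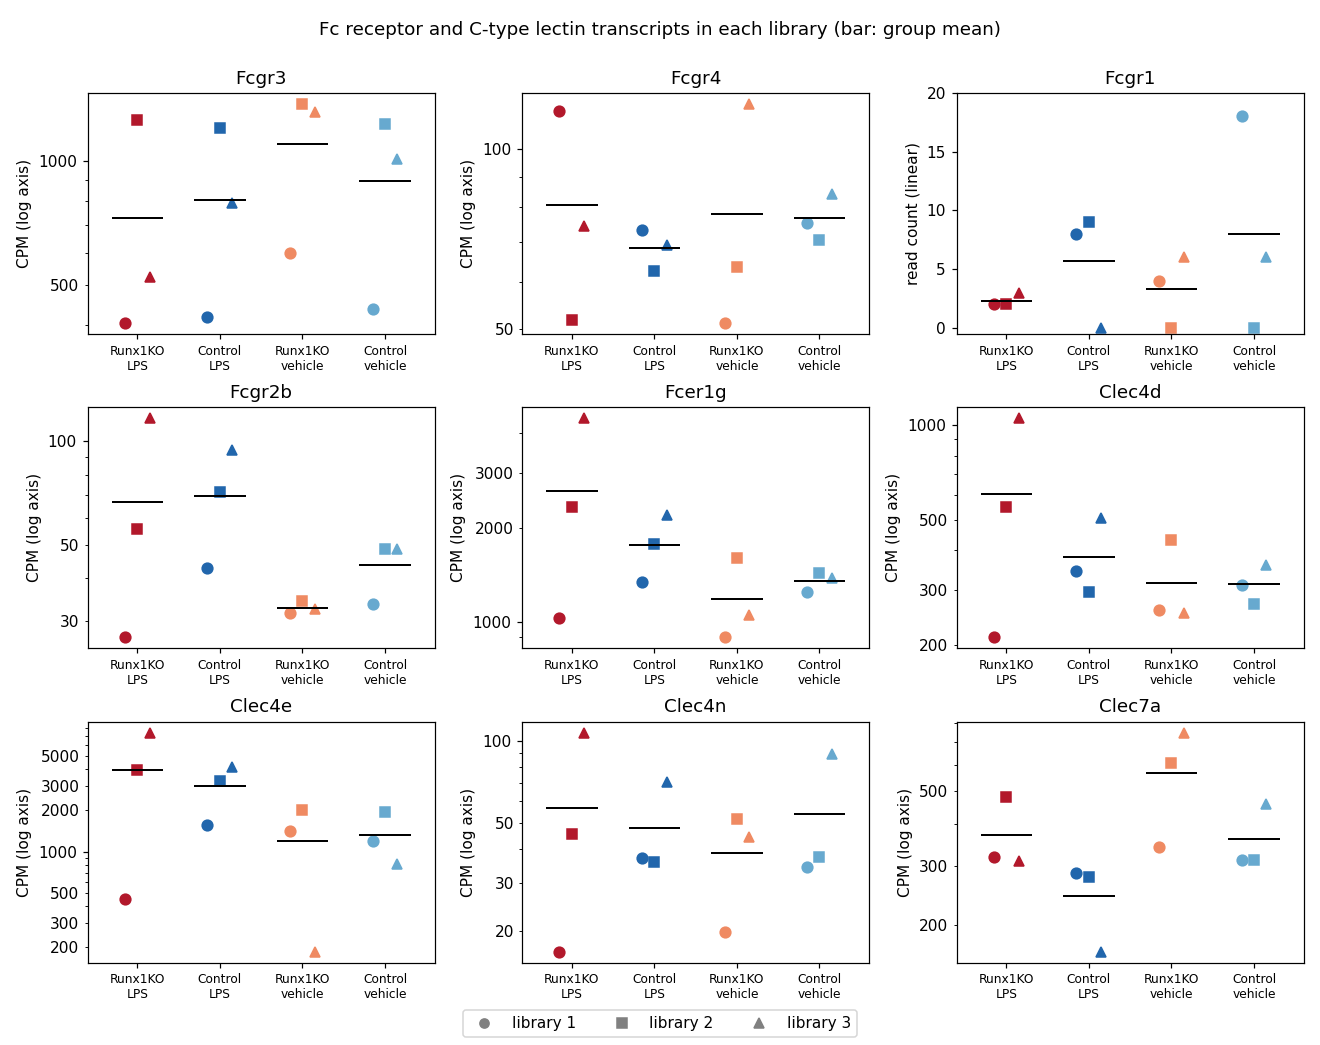
CPM (log axis; read counts on a linear axis for Fcgr1) in each of 12 libraries, by group, with the library number as the marker shape and the group mean as a bar. Clec4e reaches 7369 CPM in Runx1KO LPS library 3 and stands at 186 CPM in Runx1KO vehicle library 3.

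Among the activating receptors, Fcgr3 stood at 405, 1260 and 525 CPM in Runx1KO with LPS and 600, 1380 and 1318 CPM in Runx1KO with vehicle. In Control it stood at 419, 1208 and 791 CPM with LPS and 439, 1229 and 1015 CPM with vehicle. Library 2 was highest and library 1 lowest in all 4 groups, and the LPS and vehicle groups overlapped. The LPS log2 fold change was -0.59 (SE 0.55, edgeR adjusted p = 0.895) in Runx1KO and -0.15 (SE 0.55, adjusted p = 1) in Control.

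Fcgr4, the other activating receptor gene that was tested, stood at 116, 51.8 and 74.4 CPM in Runx1KO with LPS and 51.2, 63.4 and 119 CPM in Runx1KO with vehicle. In Control it stood at 73.2, 62.5 and 69.0 CPM with LPS and 75.1, 70.4 and 84.3 CPM with vehicle. It was lower with LPS in 5 of 6 pairs, the exception being Runx1KO library 1. Its log2 fold change was 0.05 (SE 0.35) in Runx1KO, where it turned to -0.24 with library size alone and to -0.56 without replicate 1, and -0.17 (SE 0.35) in Control.

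The signal chain gene Fcer1g stood at 1033, 2332 and 4476 CPM in Runx1KO with LPS and 897, 1604 and 1059 CPM in Runx1KO with vehicle. Control libraries had 1347, 1773 and 2193 CPM with LPS and 1252, 1440 and 1388 CPM with vehicle. Every pair was higher with LPS, yet the groups overlapped because Runx1KO library 1 with LPS was below Runx1KO library 2 with vehicle, and likewise in Control. The log2 fold change was 1.14 (SE 0.45, unadjusted p = 0.0263, edgeR adjusted p = 0.873) in Runx1KO and 0.38 (SE 0.44, adjusted p = 1) in Control. Without replicate 3 the Runx1KO value was 0.41.

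Inhibitory Fcgr2b stood at 26.9, 55.5 and 117 CPM in Runx1KO with LPS and 31.6, 34.2 and 32.5 CPM in Runx1KO with vehicle. The Control libraries had 42.8, 71.3 and 94.4 CPM with LPS and 33.6, 48.5 and 48.7 CPM with vehicle. Runx1KO vehicle libraries were tightly grouped (32.8 ± 1.33 CPM, SD, n = 3), and only Runx1KO library 1 was lower with LPS than with vehicle. The log2 fold change was 1.02 (SE 0.45, unadjusted p = 0.0432, edgeR adjusted p = 0.873) in Runx1KO and 0.67 (SE 0.45, adjusted p = 1) in Control. It was 0.30 in Runx1KO without replicate 3.

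The balance of activating to inhibitory receptors was read as the log2 ratio of the summed Fcgr1, Fcgr3 and Fcgr4 counts to the Fcgr2b counts within a library. Fcgr3 made up most of that sum, so the ratio says little of Fcgr4 or Fcgr1. Its part was 9471 of 12176 counts in Runx1KO LPS library 1 and 37607 of 41014 in Runx1KO vehicle library 3. Such a ratio does not depend on how libraries are scaled, and only its change is read, since the genes differ in length. It was 4.28, 4.56 and 2.36 in Runx1KO with LPS and 4.36, 5.40 and 5.47 in Runx1KO with vehicle. In Control it was 3.52, 4.16 and 3.19 with LPS and 3.94, 4.74 and 4.50 with vehicle. The ratio was lower with LPS in all 3 number-matched pairs of each genotype, and the groups overlapped.

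The mean difference was -1.34 in Runx1KO (two-sided exact permutation test, p = 0.2) and -0.77 in Control (exact p = 0.2). With 3 libraries against 3 such a test cannot give a p below 0.1. Leaving out replicate 3 brought the Runx1KO difference to -0.46 and the Control difference to -0.50. The 2 ratios were each compared in 4 ways, and with the smallest raw p at 0.2 no adjustment could bring a value under 0.05. Both the counts of Fcgr3 and those of Fcgr2b carry the uncertainty of their shared sequence.

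**Figure D3:**
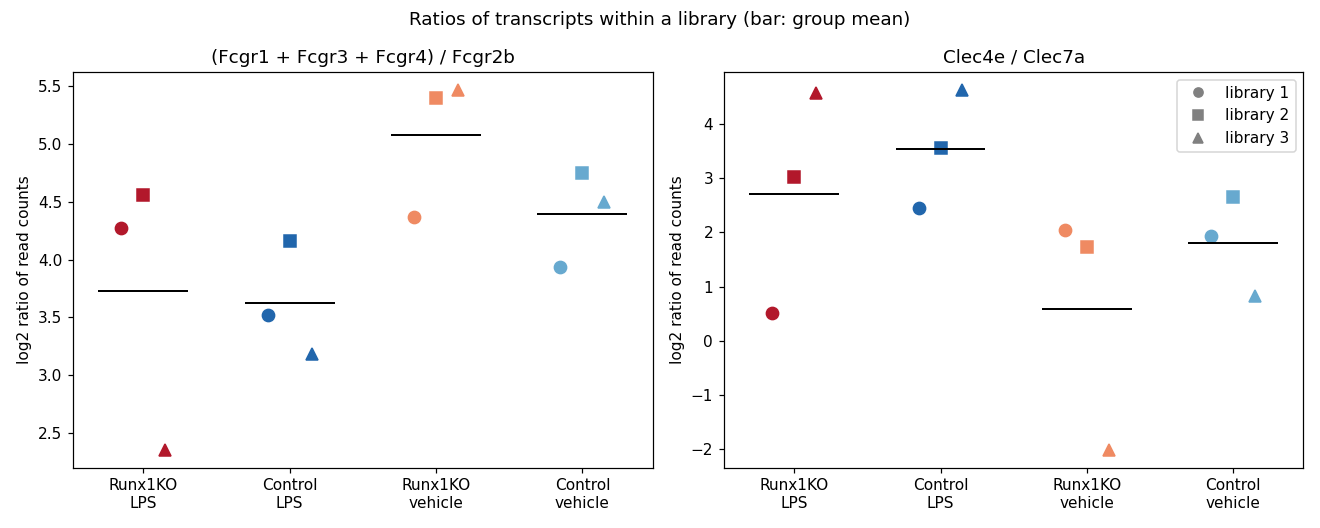
Log2 ratios of counts within each library: activating Fc gamma receptors (Fcgr1 + Fcgr3 + Fcgr4) to Fcgr2b, and Clec4e to Clec7a, by group, with the library number as the marker shape and the group mean as a bar. The activating ratio is lowest at 2.36 in Runx1KO LPS library 3, and the lectin ratio is lowest at -2.01 in Runx1KO vehicle library 3.

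Among the lectins, Clec4e had the widest spread. It stood at 451, 3939 and 7369 CPM in Runx1KO with LPS and 1402, 2016 and 186 CPM in Runx1KO with vehicle. Control libraries had 1556, 3282 and 4123 CPM with LPS and 1186, 1956 and 814 CPM with vehicle. Within Runx1KO, library 1 was lower with LPS than with vehicle and libraries 2 and 3 were higher, by -1.63, 0.97 and 5.30 on the log2 scale. In Control the same differences were 0.39, 0.75 and 2.34, all positive.

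The fitted LPS log2 fold change of Clec4e was 1.71 (SE 0.91, edgeR adjusted p = 0.873) in Runx1KO and 1.18 (SE 0.89, adjusted p = 1) in Control. Without replicate 3 these became 0.35 and 0.63, so the size rested on the libraries numbered 3. As background, Clec4e is known as an LPS-inducible gene in mouse macrophages.

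Clec4d, whose product pairs with Mincle, stood at 212, 547 and 1051 CPM in Runx1KO with LPS and 258, 432 and 254 CPM in Runx1KO with vehicle. Control had 345, 294 and 508 CPM with LPS and 310, 270 and 359 CPM with vehicle. It was higher with LPS in 5 of 6 pairs, the exception again being Runx1KO library 1. The log2 fold change was 0.94 (SE 0.48) in Runx1KO, where it was 0.12 without replicate 3, and 0.29 (SE 0.47) in Control.

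The Dectin-2 gene Clec4n, next to Clec4d, showed no one direction. It stood at 16.8, 45.5 and 107 CPM in Runx1KO with LPS and 19.9, 51.5 and 44.4 CPM in Runx1KO with vehicle, and at 37.1, 35.9 and 70.9 CPM in Control with LPS and 34.5, 37.6 and 89.4 CPM in Control with vehicle. It was higher with LPS in 2 of 6 pairs. The log2 fold change was 0.55 (SE 0.61) in Runx1KO and -0.17 (SE 0.61) in Control, and both signs turned without replicate 3, to -0.22 in Runx1KO and 0.02 in Control.

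Clec7a, the Dectin-1 gene, ran the other way. It stood at 318, 482 and 310 CPM in Runx1KO with LPS and 341, 608 and 748 CPM in Runx1KO with vehicle. In Control it stood at 286, 278 and 166 CPM with LPS and 312, 311 and 459 CPM with vehicle, and there the LPS libraries all lay below the vehicle libraries. Across all genes tested, 2.32% were lower with LPS in Control without overlap. Its log2 fold change was -0.61 (SE 0.35, edgeR adjusted p = 0.873) in Runx1KO and -0.57 (SE 0.35, adjusted p = 1) in Control. Without replicate 3 the values were -0.27 in Runx1KO and -0.14 in Control.

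**Figure D4:**
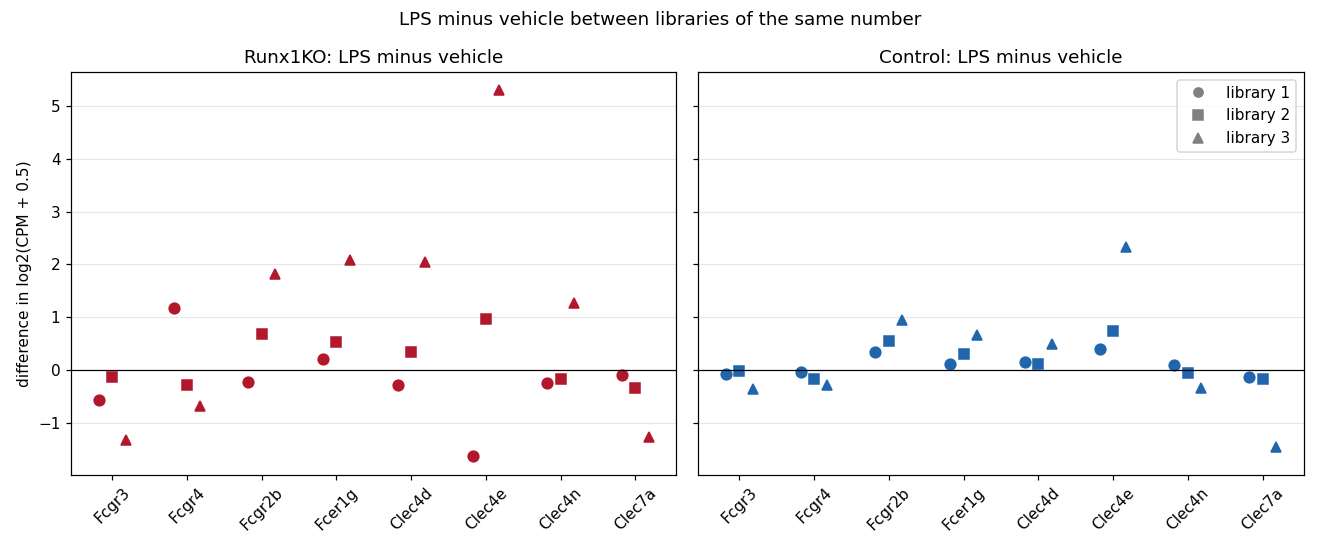
Difference in log2(CPM + 0.5) between the LPS and the vehicle library of the same number, for the 8 tested genes in Runx1KO and Control. Fcer1g lies above 0 in 6 of 6 pairs, Fcgr3 and Clec7a below 0 in 6 of 6, and Clec4e spans -1.63 to 5.30 in Runx1KO.

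Set against each other within a library, the lectins Clec4e and Clec7a had log2 count ratios of 0.51, 3.03 and 4.57 in Runx1KO with LPS and 2.04, 1.73 and -2.01 in Runx1KO with vehicle. In Control the ratios were 2.44, 3.56 and 4.63 with LPS and 1.93, 2.65 and 0.83 with vehicle. The ratio was higher with LPS in 3 of 3 Control pairs and in 2 of 3 Runx1KO pairs. The mean difference was 2.12 in Runx1KO (exact permutation p = 0.4) and 1.74 in Control (exact permutation p = 0.2). Without replicate 3 the Runx1KO difference was -0.12 and the Control difference 0.71.

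Across the 8 tested genes the median LPS log2 fold change was 0.74 in Runx1KO, against 0.03 over all genes tested, and 0.07 in Control, against -0.02 over all genes. Positive values were found for 6 of 8 in Runx1KO and 4 of 8 in Control. These medians move with the scaling: with library size alone the median of the 8 was 0.28 in Runx1KO and -0.07 in Control, and the median over all genes -0.28 in Runx1KO and -0.14 in Control. Without replicate 3 the median of the 8 was 0.21 in Runx1KO and 0.08 in Control.

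Between Runx1KO and Control, too, no receptor gene passed the test's threshold. With LPS, 0.921% of all genes tested passed for Runx1KO against Control, and with vehicle 0.952% passed, none of them a receptor gene. Even at an unadjusted p under 0.05, which 10.1% of all genes reached with LPS and 7.79% with vehicle, none of the 8 was found, and DESeq2 called none of them. With the replicate number as a block, 302 genes were called with LPS, against 119 without the block, and 315 with vehicle, against 123 without it, none of them a receptor gene. The gene with the steadiest sign was Clec7a, at 370 ± 97.1 CPM in Runx1KO with LPS against 243 ± 66.7 CPM in Control with LPS (SD, n = 3 each). With vehicle it stood at 566 ± 207 CPM in Runx1KO and 361 ± 85.0 CPM in Control.

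Clec7a was higher in Runx1KO than in the Control library of the same number and treatment in 6 of 6 pairs, also with library size alone as the scaling; all 6 pairs were higher for 7.75% of all genes tested. With LPS the groups did not overlap, with 310 CPM as the lowest Runx1KO value and 286 CPM as the highest Control value; 6.51% of all genes were higher without overlap there. With vehicle they overlapped. The log2 fold change was 0.60 (SE 0.35, edgeR adjusted p = 0.636) with LPS and 0.65 (SE 0.35, adjusted p = 0.797) with vehicle. An interval of 1.96 SE on either side ran from -0.08 to 1.29 with LPS and from -0.04 to 1.34 with vehicle.

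Fcgr2b pointed the other way with vehicle, at 32.8 ± 1.33 CPM in Runx1KO and 43.6 ± 8.70 CPM in Control (SD, n = 3 each). It was lower in Runx1KO in 5 of 6 pairs, LPS library 3 being the exception, and no share over all genes was computed for 5 of 6. Its log2 fold change was -0.41 (SE 0.45, interval -1.29 to 0.46) with vehicle and -0.07 (SE 0.44, interval -0.94 to 0.81) with LPS. For Fcgr3 the log2 fold change was -0.14 (SE 0.55) with LPS and 0.30 (SE 0.55) with vehicle. The activating to inhibitory ratio was higher in Runx1KO with vehicle in 3 of 3 pairs, by a mean of 0.68 (exact permutation p = 0.3), and differed by 0.11 with LPS (exact permutation p = 0.9).

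The remaining genes had small or split genotype differences. Fcer1g had a log2 fold change of 0.56 (SE 0.44) with LPS and -0.20 (SE 0.44) with vehicle, and Clec4d 0.66 (SE 0.47) with LPS and 0.01 (SE 0.47) with vehicle. Without replicate 3 the values with LPS were 0.13 for Fcer1g and 0.27 for Clec4d. Clec4e had 0.39 (SE 0.88) with LPS and -0.13 (SE 0.88) with vehicle, turning to -0.12 and 0.16 without replicate 3. For Clec4n the values were 0.24 (SE 0.61) with LPS, which turned to -0.05 with library size alone, and -0.48 (SE 0.61) with vehicle. Fcgr4 had 0.24 (SE 0.35) with LPS and 0.02 (SE 0.35) with vehicle. The interval of Clec4e with LPS ran from -1.34 to 2.12 and was the widest of these with LPS. The Clec4e to Clec7a ratio differed by -0.84 with LPS and -1.21 with vehicle (exact permutation p = 0.6 for each).

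**Figure D5:**
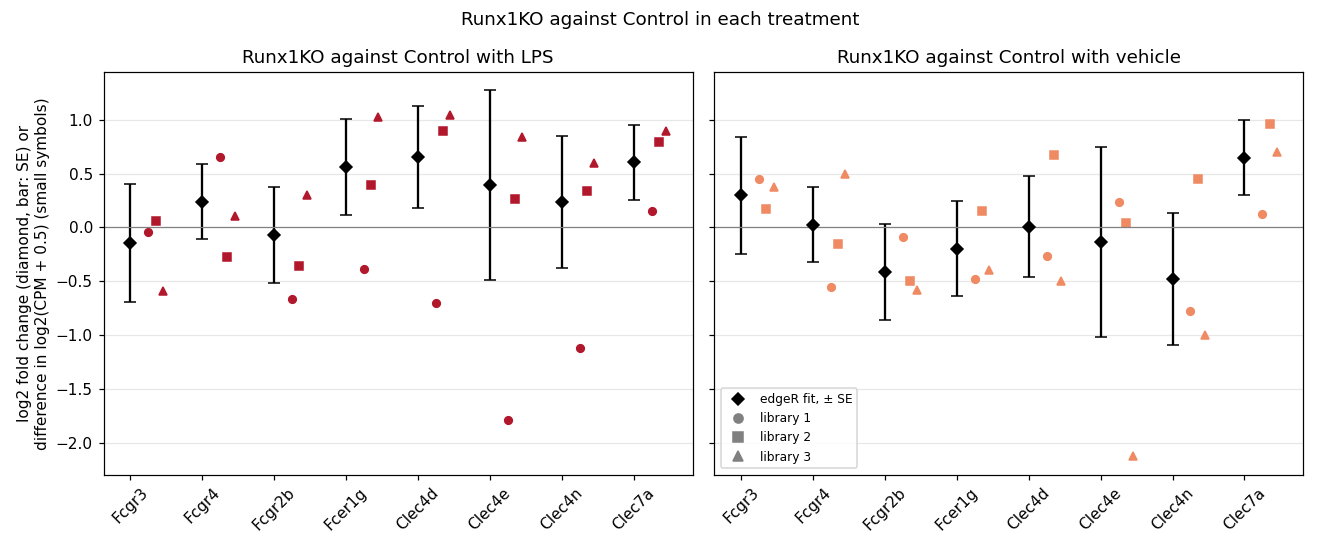
Log2 fold change of Runx1KO over Control with LPS and with vehicle for the 8 tested genes (black diamonds with bars of 1 SE), beside the number-matched differences in log2(CPM + 0.5) as small symbols shaped by library number. Clec7a lies at 0.60 with LPS and 0.65 with vehicle, and all 6 of its small symbols lie above 0.

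The difference of the LPS responses, Runx1KO minus Control, was tested as an interaction. None of the 8 genes passed with edgeR or DESeq2, and 0% of all genes tested passed. At an unadjusted p under 0.05 none of the 8 did, against 0.596% of all genes. The estimates ran from -0.44 (SE 0.77) for Fcgr3 to 0.76 (SE 0.63) for Fcer1g, with edgeR adjusted p of 1 for each. Without replicate 3 these were -0.24 for Fcgr3 and 0.19 for Fcer1g, and with library size alone Fcer1g was 0.45. Clec4e stood at 0.53 (SE 1.25, interval -1.92 to 2.97), so the spread between libraries exceeded the difference.

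Genes that relay the receptors' signal were followed as a list of 17, among them the ITAM adaptor Tyrobp, the kinases Syk, Lyn and Fgr, and the scaffold Card9. All 17 were tested and none passed in any of the 5 comparisons. Their median LPS log2 fold change was 0.12 in Runx1KO and 0.16 in Control, with 12 and 13 of 17 positive. For LPS in Runx1KO, 2 of the 17 were past an unadjusted p of 0.05, as were 5.23% of all genes, among them the adaptor Lcp2 at a log2 fold change of 1.39 (SE 0.56). Lcp2 stood at 224.5, 578 and 1264 CPM in Runx1KO with LPS and 230.4, 377 and 178 CPM in Runx1KO with vehicle, so library 3 carried most of that difference, which was 0.61 without Runx1KO LPS library 3. Syk itself had 0.07 in Runx1KO and 0.33 in Control.

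Inhibitory ITIM receptors and their phosphatases gave the same count, 0 of 12 tested in every comparison, with median LPS log2 fold changes of 0.21 in Runx1KO and 0.06 in Control. At an unadjusted p under 0.05, 2 of the 12 were past it for LPS in Runx1KO, where 5.23% of all genes were, and 0 in Control, where 0.604% were. For Runx1KO against Control 1 of the 12 was past it with LPS, where 10.1% of all genes were, and 1 with vehicle, where 7.79% were. Other C-type lectins were tested for 10 of 20 listed genes and none passed. For Runx1KO against Control, all 10 log2 fold changes were above 0 with LPS (median 0.67, against 0.03 over all genes). With vehicle 6 of the 10 were above 0 (median 0.33, against 0.002 over all genes). In each treatment 1 of the 10 was past an unadjusted p of 0.05, where 10.1% and 7.79% of all genes were. At an unadjusted p under 0.05, 4 of the 10 were higher with LPS in Runx1KO, namely Clec4a1 (3.26, SE 1.10), Clec5a (1.39, SE 0.60), Clec4a3 (1.29, SE 0.48) and Clec4a2 (0.58, SE 0.24), the last also on the ITIM list; 5.23% of all genes tested were past that p in either direction. Their edgeR adjusted p was 0.873 for each, and in Control none of the 10 did so.

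These values leaned on Runx1KO LPS library 3. Clec4a1 stood at 1.93, 2.34 and 25.2 CPM in Runx1KO with LPS and 0.243, 1.33 and 1.47 CPM in Runx1KO with vehicle, and Clec5a at 154, 407 and 1135 CPM in Runx1KO with LPS and 191, 263 and 194 CPM in Runx1KO with vehicle. Without that library, an alternative chosen after the values were seen, the log2 fold changes were 1.06 for Clec4a1, 0.37 for Clec5a, 0.54 for Clec4a3 and 0.44 for Clec4a2. None was then past an unadjusted p of 0.05, the lowest being 0.108 for Clec4a2 (edgeR adjusted p = 1 for each).

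Among 11 other Fc receptor genes listed, 2 fell in Runx1KO with LPS and with vehicle alike, Fcrla and Fcmr. Over all genes tested 0.573% fell with LPS and 0.604% with vehicle. Only 6 of the 11 passed the filter on low counts, and Fcrla and Fcmr passed it through the Control libraries, where they were high, so the count is not read against that share. Fcrla, a B-cell Fc receptor-like protein, had 4, 3 and 4 counts in Runx1KO with LPS against 48, 20 and 97 in Control with LPS. With vehicle it had 6, 3 and 10 counts in Runx1KO against 76, 32 and 106 in Control. Its log2 fold change was -3.88 (SE 0.70, edgeR adjusted p = 0.0242) with LPS and -3.58 (SE 0.67, adjusted p = 0.0281) with vehicle.

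Fcmr, the IgM Fc receptor, had 1, 0 and 2 counts in Runx1KO with LPS against 27, 17 and 49 in Control with LPS, and 0, 2 and 0 in Runx1KO with vehicle against 40, 25 and 45 in Control with vehicle. The depth-adjusted ratio of the summed counts was 0.0310 with LPS (exact 95% counting interval 0.00628 to 0.0935) and 0.0174 with vehicle (0.00208 to 0.0643). The edgeR adjusted p was 0.0412 with LPS and 0.0232 with vehicle. In alternatives chosen after the values were seen, leaving out any 1 of the 6 Runx1KO and Control libraries ended the Fcmr call with LPS in 6 of 6 cases (edgeR adjusted p from 0.0662 to 0.154) and with vehicle in 4 of 6 (0.0340 to 0.118). The Fcrla call ended in 5 of 6 cases with LPS (edgeR adjusted p from 0.0200 to 0.129) and in 5 of 6 with vehicle (0.0285 to 0.137), and held in both treatments only without Control library 2. Leaving out a whole replicate number ended every one of these calls, while DESeq2, library size alone, no filter and the replicate block ended none.

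Fcer1a, the alpha chain of the IgE receptor, had 0 counts in all 6 Runx1KO libraries, 10, 0 and 35 in Control with LPS and 10, 1 and 40 in Control with vehicle. It did not pass (edgeR adjusted p = 0.381 with LPS and 0.398 with vehicle). Fcer2a, the low-affinity IgE receptor CD23 of B cells, had an edgeR adjusted p of 0.0600 with LPS and 0.0577 with vehicle, at 0 to 3 counts in Runx1KO libraries and 14 to 77 in Control libraries.

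Markers of other cells moved beside these falls. The summed B-lineage markers ran from 16.2 to 26.0 CPM in Runx1KO with LPS against 27.8 to 70.2 CPM in Control with LPS, and from 12.2 to 17.1 CPM in Runx1KO with vehicle, where Ms4a1 was at 0, against 23.3 to 51.0 CPM in Control with vehicle. Of the 9 tested B-lineage markers, 1 fell with LPS and 2 with vehicle, where 0.573% and 0.604% of all genes tested fell. Log2 fold changes were above 0 for 1 of these 9 with LPS and for 2 with vehicle. Basophil and mast cell markers fell for 1 of 8 tested with LPS and 2 of 8 with vehicle, with Fcer1a, Mcpt8 and Prss34 at 0 in Runx1KO libraries. Others went the other way, with log2 fold changes above 0 for 3 of 8 with LPS and 2 of 8 with vehicle. Genes at 0 in Runx1KO libraries can pass the filter only through Control libraries, so neither list's count is read against those shares. The summed basophil and mast cell markers, 1268 to 4647 CPM over all libraries, were nearly all Hdc, which these libraries carried at 1262 to 4599 CPM. Their part in the Fcmr, Fcrla and Fcer1a values was not tested, and in bulk RNA fewer cells of a type and less RNA per cell cannot be told apart.

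Monocyte and macrophage markers, which matter because those cells carry the same receptors, were all detected in every group. Their summed level was 979, 1571 and 3026 CPM in Runx1KO with LPS against 745, 1410 and 1266 CPM in Runx1KO with vehicle, and 1612, 1940 and 1992 CPM in Control with LPS against 1508, 1747 and 1393 CPM in Control with vehicle. Ly6c2, Csf1r and Adgre1 made up most of it. Adgre1 and Csf1r reached 1220 and 741 CPM in Runx1KO with LPS, against at most 207 and 345 CPM in Control with LPS. Ly6c2 went the other way, at 807 to 969 CPM in Runx1KO with LPS against 1437 to 1481 CPM in Control with LPS. Ctss and F13a1 were highest in Runx1KO with vehicle, at up to 75.9 and 25.2 CPM. The summed level was thus highest in Runx1KO LPS library 3, where Fcgr2b, Fcer1g, Clec4d, Clec4e and Clec4n were also highest in CPM. That library had the lowest TMM factor, 0.699, and for 2 of these genes the rank rested on it. Relative to total counts alone, Clec4n was higher in Control vehicle library 3 (2113 of 21096154 counts) than there (1911 of 25443980). Likewise Fcgr2b was higher in Control LPS library 3 (2006 of 22303772 counts) than there (2077 of 25443980). With edgeR none of the 13 tested markers passed in any comparison; at an unadjusted p under 0.05, 3 did for Runx1KO against Control with LPS, where 10.1% of all genes did, and 1 with vehicle, where 7.79% did. Dendritic markers likewise reached their highest sum, 337 CPM, in Runx1KO LPS library 3, against 32.1 to 219 CPM in the other 11. Cd74 made up most of that sum, at up to 283 CPM in Runx1KO with LPS. Flt3 was also highest in Runx1KO with LPS, but several others were highest in Control. Itgax reached 23.2 CPM in Control with vehicle, and H2-Aa and H2-Ab1 17.6 and 33.5 CPM in Control with LPS. In Runx1KO with LPS these 3 reached 6.30, 12.2 and 21.8 CPM. The part of monocyte, macrophage and dendritic markers in the receptor values was not tested.

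Of the other marker lists, megakaryocyte and platelet genes ran from 33.2 to 50.7 CPM in Runx1KO with LPS and 38.4 to 41.7 CPM in Runx1KO with vehicle, against 3.81 to 9.67 CPM in Control with LPS and 2.67 to 5.50 CPM in Control with vehicle. Of 9 tested, 2 rose with LPS and 4 with vehicle, where 0.921% and 0.952% of all genes passed in either direction. Treml1 had 5 summed counts in Control with LPS and 2 in Control with vehicle. Such genes can pass the filter only through the Runx1KO libraries, so the count is not read against those shares. T and NK cell genes ran from 7.37 to 11.0 CPM in Runx1KO with LPS and 7.12 to 12.9 CPM in Runx1KO with vehicle, against 38.6 to 53.6 CPM in Control with LPS and 35.8 to 55.4 CPM in Control with vehicle as a sum, and Cd3d carried that difference. Cd3d, part of the CD3 signalling unit of T cells, was the only 1 of 5 tested to pass and fell with each treatment, at 1.35 to 1.80 CPM in Runx1KO with LPS against 35.7 to 47.5 CPM in Control with LPS, and 1.68 to 3.06 CPM in Runx1KO with vehicle against 32.4 to 47.4 CPM in Control with vehicle. The log2 fold changes of the other tested T and NK cell genes were mostly above 0, so that 4 of 5 with LPS and 3 of 5 with vehicle were positive. Of 7 tested eosinophil genes, 1 fell with vehicle, where 0.604% of all genes fell, and 3 of the 7 log2 fold changes there were above 0. The eosinophil list ran from 9.55 to 35.4 CPM. None of 6 progenitor genes passed, at 10.4 to 59.1 CPM, and none of 11 neutrophil genes.

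Over the 12 libraries the receptor genes moved together in part. As a description, the Pearson correlation of log2 CPM was 0.94 between Fcer1g and Clec4d, 0.89 between Fcer1g and Fcgr2b, and 0.80 between Fcer1g and Clec4e. Fcgr3 had 0.09 with Fcer1g, the chain its product needs, and Clec4e had -0.74 with Fcgr4 and -0.52 with Clec7a. The points share 4 groups, library numbers and depth, so no p is given.

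Among 7067 genes, the closest to Clec4e was Tlr2 (r = 0.99, n = 12), a Toll-like receptor for bacterial lipoproteins, followed by Rasip1 and Best1. Fcgr2b was closest to the myeloid lectin Clec5a (0.99), then Pola2 and Chmp2b. Fcer1g had Sugt1 (0.98), Atp6v1e1 and Txn1, and Clec4d had Ciao2b (0.97) with the same Atp6v1e1 and Sugt1. Fcgr3 was closest to Tbc1d17 (0.97), Rpf1 and Kdm5b, and Fcgr4 to Zfp706 (0.95), Tent5a and Rin2. Clec4n had Smap1 (0.92), Cd9 and Cstb, and Clec7a had H2afj (0.92), Hmgb1-ps3 and Lhx1.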

How the data were processed

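The authors deposited 1 table of raw counts per gene, whole numbers for 12 libraries. Per the submitters' processing notes, STAR 2.6.0a, featureCounts and the build mm9 were used. The notes give no settings for strand, multimapping or annotation. Per the labels' protocols, RNA came from sorted cells in an ultra-low input library kit with spike-in RNA. Identifiers were matched to symbols (32620 of 37310), and exon lengths, shared 50-base stretches and neighbours came from GENCODE vM21 on GRCm38, a build other than the authors', so no coordinates are given beside the counts.

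Genes were filtered with filterByExpr, scaled with TMM and tested in edgeR 4.0.16 (R 4.3.3, limma 3.58.1) with the quasi-likelihood test, 4 groups in 1 model, 5 contrasts and Benjamini-Hochberg adjustment over 12917 genes at 0.05. The edgeR procedure was also run on simulated counts. These had no effect of library number and 1 fixed spread for all genes, so that run does not show how it performs on these libraries. Ratios within a library used counts + 0.5 and a two-sided exact permutation test. Number-matched differences used log2(CPM + 0.5). Alternatives were DESeq2 1.42.0, library size alone, no filter, a replicate block, a ratio pseudocount of 5 and leaving out libraries. Same-numbered libraries correlated in their deviations from the group means by over 0.1 for every number in 3 of the 4 pairwise comparisons, but by 0.0058 for number 3 of LPS in Runx1KO. That pairing comes from the data, as the labels give replicate numbers without saying what they share. Whether each library is its own mouse is not stated, and the p-values cover only the spread among these libraries, which may be technical. Chi-square tests of counts found no pair of libraries within sampling noise of each other (9.91 per degree of freedom at the least). The labels name no molecular identifiers, and counting error is all that the floors and the exact counting intervals of Fcmr include. The intervals around log2 fold changes were built from the SE of the edgeR fit, which also includes the spread among these libraries.

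All 9 genes were named in every contrast, with the 3 genes nearest to each by Pearson r (mean log2 CPM of at least 2), the called genes of 4 pathway lists, Runx1, and markers from 9 cell-type lists that moved. Other genes named from these lists were chosen after their values were seen. The genes and lists were chosen with earlier results of these data known.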

Additional observations from a re-analysis of the deposited data

How the results depend on the processing

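In all 71 alternatives for the 5 counts of receptor genes called, the count stayed at 0, with a smallest adjusted p of 0.182 (Runx1KO against Control with LPS, without Runx1KO LPS replicate 1). Of 280 alternatives for single-gene log2 fold changes, 258 kept their sign and 22 turned, and of 40 for ratios 37 kept and 3 turned; the cause was not tested. With library size alone, Fcgr4 for LPS in Runx1KO was -0.24 and Clec4n for Runx1KO against Control with LPS -0.0510. With the replicate block, Clec4n for Runx1KO against Control with LPS was -0.0259 and Fcgr4 with vehicle -0.0065, no receptor gene was called, and genes called were 302 (main 119) with LPS and 315 (main 123) with vehicle. DESeq2 called 401 with LPS, 386 with vehicle and 1 for LPS in Runx1KO; without the filter 168 and 183 were called. Leaving out libraries gave 3 to 135 genes with LPS and 1 to 70 with vehicle. Leaving out each number in turn turned these signs: for LPS in Runx1KO, Fcgr4 (-0.56 to 0.52) and Clec4n (-0.22 to 0.95); for LPS in Control, Clec4n (-0.219 to 0.0232). For Runx1KO against Control with LPS these were Fcgr2b (-0.455 to 0.0691), Fcgr3 (-0.377 to 0.0468), Fcgr4 (-0.0732 to 0.420), Clec4e (-0.12 to 0.60) and Clec4n (-0.21 to 0.50). With vehicle they were Fcgr4 (-0.30 to 0.29), Clec4d (-0.39 to 0.29), Clec4e (-0.33 to 0.16) and Clec4n (-0.945 to 0.0285). For the difference of LPS responses they were Fcgr2b (-0.18 to 0.53), Fcgr4 (-0.36 to 0.62), Clec4d (-0.0259 to 0.956), Clec4e (-0.29 to 0.86) and Clec4n (-0.24 to 1.15). The activating to inhibitory ratio for Runx1KO against Control with LPS ran from -0.21 to 0.58, and the Clec4e to Clec7a ratio for LPS in Runx1KO from -0.12 to 3.94. Depth limits Fcgr1 alone among the 9 genes.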
